A study of Mus musculus with 12 samples.

Results

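The response of TM3 cells to 5 mM methoxyacetic acid (MAA) at 24 h was compared with the response at 8 h. TM3 is a Leydig cell line from the testis of an immature mouse, and MAA is formed in the body from ethylene glycol monomethyl ether, an industrial solvent. The comparison used the 4 arrays of 5 mM MAA at 8 h and 24 h, of 12 arrays in the series. It was defined by the conditions of the samples and not by measured values, though earlier results of these data were known. Cells of the 8 h group had 5 mM MAA in the culture medium for 8 h, and those of the 24 h group for 24 h. Each was hybridized against cells kept for the same time in medium alone, so that each time had its own control. Each condition had 2 arrays, each MAA-treated RNA was a pool of 3 cultures, and the dyes were exchanged: MAA-treated RNA carried Alexa 555 on replicate 1 and Alexa 647 on replicate 2. The remaining arrays held 5 mM MAA at 3 h and 1 mM MAA at 3, 8 and 24 h.

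Leydig cells lie between the seminiferous tubules and make testosterone from cholesterol. MAA is a short-chain acid known to inhibit histone deacetylases and to damage the testis, where dividing and meiotic germ cells are the best known target. A transcript whose MAA over control ratio differs between 2 times need not have changed in the treated cells: the ratio at each time is set against untreated cells of that time, and these also change as a culture ages. The difference of log2 ratios equals the movement of the MAA channel minus the movement of the control channel, and both parts are given for the leading genes.

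Of the 12 arrays, between 124 and 208 spots per array were marked as outliers and excluded, and 41173 probes were tested. Well above background on the 4 arrays were 62.1% to 67.8% of probes in the MAA channel and 63.2% to 69.6% in the control channel, and the number of arrays, not a depth, limits the precision. The median standard error of a difference was 0.213 on the log2 scale. Of 8 Leydig cell markers, Star, Cyp17a1 and Insl3 were well above background in both channels of all 4 arrays, while Lhcgr, Hsd3b1 and Hsd3b6 were not above it in any. The 24 h replicate 1 array was scanned on another date than the rest of the 4 arrays, per the file headers. It lay on slide 1, the 8 h replicate 1 array on slide 2 and both replicate 2 arrays on slide 3, so the replicate 2 difference is the value within a slide. For the genes that led the comparison it stands in the text where it departed from the mean by over 0.3.

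At 24 h the log2 ratio was higher than at 8 h for 1893 probes and lower for 1777, by a limma contrast with a Benjamini-Hochberg adjusted p under 0.05, which is 4.6% and 4.32% of the probes tested. With each array centred on its median the counts were 851 and 481. Of the probes called, 552 were higher and 243 lower by more than 2-fold. As bulk RNA was measured, fewer cells of a type and less RNA per cell cannot be told apart. Among the probes that were higher at 24 h, 318 were repressed over 2-fold at 8 h (unadjusted p under 0.005) and no longer called at 24 h, 365 were not called at 8 h and induced at 24 h, and 77 were induced at both times and more so at 24 h. A further 1083 were called at neither time by that measure. Among the probes that were lower, 185 were induced at 8 h and no longer called at 24 h, 133 were repressed at 24 h alone, and 1420 were called at neither time. The ratio changed sides, with a call in opposite directions at the 2 times, for 5 probes that were higher and 1 that was lower.

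P-values measure the spread between arrays of one condition, taken over the whole series unless a fit of fewer arrays is named. The arrays of a condition differ in pool, dye orientation, slide and, for some conditions, scan date, which this spread does not separate. No spread beyond these pools was measured. Signals of the single channels were put on a common scale and fitted for each channel. Of 3661 called probes with values in both channels, the MAA channel moved more than the control channel in 70.4%, against 52.1% of all probes. From replicate 1 arrays alone the share was 71.1%, and from the replicate 2 arrays of slide 3 it was 69.6%. Both were taken over the same called probes, which were called with these arrays, so they add no separate support. For probes with a higher ratio at 24 h, the MAA channel alone moved (adjusted p under 0.05) in 727, the control channel alone in 330 and both channels in 743. In 415 of the last, both channels rose and MAA rose further, and in 182 MAA rose while control fell. For probes with a lower ratio, MAA alone moved in 597, control alone in 277 and both in 834, of which 604 fell in both channels. The control channels of the 1 mM arrays, also medium alone at 8 h and 24 h, moved the same way in 1068 of the 1073 probes with a higher ratio whose control moved and in 1108 of the 1111 with a lower ratio. Whether those arrays held the same control RNA is not given in the sources used here.

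**Figure D1:**
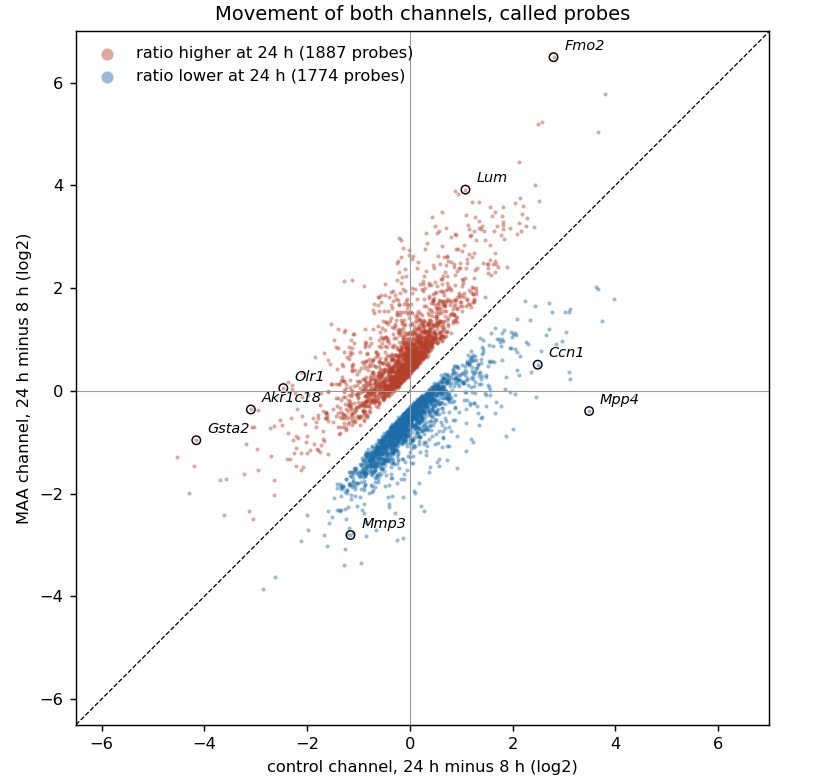
Movement of the MAA channel (vertical) against that of the control channel (horizontal) from 8 h to 24 h, in log2 signal, for the 1887 probes with a higher ratio at 24 h (red) and the 1774 with a lower ratio (blue). On the dashed line both channels moved alike; Fmo2 and Lum lie far up the MAA axis, while Gsta2, Akr1c18, Olr1 and Mpp4 lie far along the control axis.

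By the processed signals, the gain between the times was greatest for Fmo2, a flavin-containing monooxygenase that oxidizes drugs and other xenobiotics. Its log2 ratio was -2.25 and -3.02 on the 8 h arrays and 1.07 and 1.06 on the 24 h arrays. The groups lay on opposite sides of 0, with a difference of 3.70 ± 0.28 (SE, n = 2 and 2 arrays), and 4.08 within slide 3. The SE and the adjusted p of 0.00128 came from the limma fit over the whole series. In the limma fit of the 4 arrays alone, the adjusted p of Fmo2 was 0.132. The MAA channel exceeded background on 0 of the 8 h arrays and on both 24 h arrays, where it was at least 71.1-fold higher. The control also rose, by 2.80 ± 0.27 log2 units, so both channels gained transcript and the treated cells gained more. A second Fmo2 probe was higher by 2.70, and with normexp and loess, another background correction, the first gave 1.43 and stayed called.

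Other leading genes also gained through the MAA channel. Lum, which encodes lumican, a proteoglycan that binds collagen fibrils, had log2 ratios of -0.75 and -1.13 at 8 h and of 2.07 and 1.72 at 24 h (difference 2.83 ± 0.24, adjusted p = 0.00145). Its MAA channel rose by 3.92 ± 0.23 and the control by 1.08 ± 0.23. For Olfm1, a secreted olfactomedin, the ratios were 0.63 and 0.44 at 8 h and 3.12 and 3.03 at 24 h. The MAA channel rose by 2.88 ± 0.22 and the control value was 0.34 ± 0.22 (adjusted p = 0.324). Ranbp3l went from -1.25 and -0.89 to 1.76 and 1.62, with 2.54 ± 0.26 in the MAA channel and -0.23 ± 0.26 in the control (adjusted p = 0.637), and its difference of 2.76 was 1.66 with normexp and loess. Pipox, a peroxisomal oxidase of pipecolic acid and sarcosine, stood at -0.23 and -0.26 at 8 h and at 2.14 and 2.24 at 24 h, with 1.87 ± 0.26 in the MAA channel and -0.57 ± 0.26 in the control (adjusted p = 0.134), and it lost its call without any 1 of the 4 arrays (adjusted p from 0.0534 to 0.061). Prr9 stood at -2.46 and -3.31 at 8 h, where its MAA channel was not well above background, and at 0.21 and 0.05 at 24 h, and its MAA channel was at least 11.6-fold higher. Its difference was 3.01 ± 0.35 and 3.36 within slide 3, and with normexp and loess it was 0.83 and did not pass the test (adjusted p = 0.187). In C1qtnf3, a secreted relative of complement C1q, both channels contributed in opposite directions: MAA rose by 1.20 ± 0.15 and control fell by 1.4 ± 0.15, and the ratio went from 0.09 and 0.16 to 2.87 and 2.58.

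In a second set of genes with a higher ratio at 24 h, the control channel fell. For Gsta2, an alpha-class glutathione S-transferase, the ratio was -1.41 and -1.31 at 8 h and 1.84 and 1.82 at 24 h (difference 3.20 ± 0.20, adjusted p = 0.000946). Its control signal fell by 4.16 ± 0.30 log2 units and its MAA signal by 0.96 ± 0.30. Akr1c18, the enzyme that inactivates progesterone, had a ratio near 0 at 8 h, -0.04 and 0.19, and of 2.87 and 2.75 at 24 h. Its control, well above background on both 8 h arrays but on only 1 of the 24 h arrays, fell by 3.1 ± 0.18. The MAA value was -0.36 ± 0.18 (adjusted p = 0.167). With normexp and loess the differences were 1.58 for Gsta2 and 0.99 for Akr1c18, still called. Control RNA of the 1 mM arrays fell as well, by 4.73 for Gsta2 and by 4.31 for Akr1c18. Olr1, a receptor for oxidized low density lipoprotein, was induced at both times, at 1.51 and 1.56 and then at 3.99 and 4.11 (difference 2.52 ± 0.09, adjusted p = 0.000168). The MAA signal was 10.59 and 10.67 at 8 h and 10.77 and 10.60 at 24 h (change 0.05 ± 0.10, adjusted p = 0.827), while the control fell by 2.46 ± 0.10. The control of Bcas1 was above background on 1 array at 8 h and on 0 at 24 h, where the ratio was at least 13.2-fold. Its difference of 2.42 was 0.57 with normexp and loess. A second Bcas1 probe differed by 0.07 (adjusted p = 0.903), so the gene's probes did not give the same result.

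**Figure D2:**
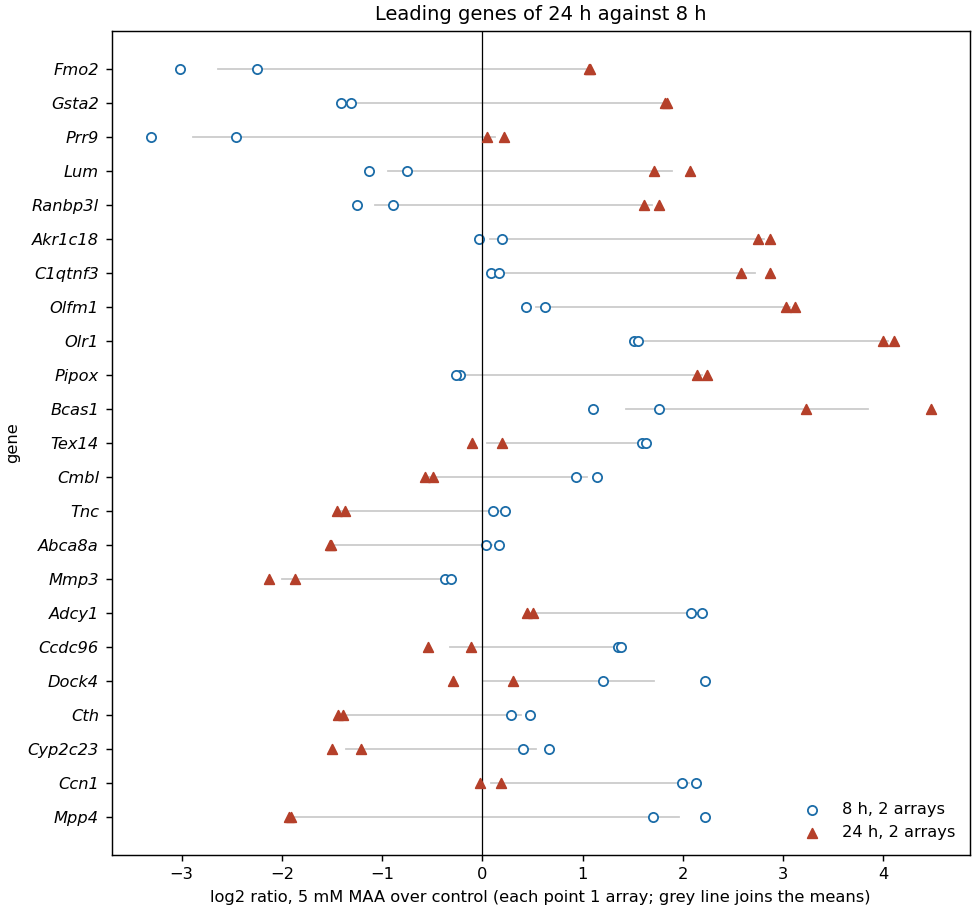
Log2 MAA over control ratio on each array for the leading genes named in the text, with 8 h as open circles and 24 h as triangles. The 8 h and 24 h arrays did not overlap, which adds no support, since these genes were chosen by that difference. Of the called probes, 1893 of 1893 higher and 1776 of 1777 lower did not overlap. Several genes, among them Fmo2, Lum, Cth and Mpp4, lay on opposite sides of 0 at the 2 times.

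By the processed signals the loss was greatest for Mpp4, a membrane-associated guanylate kinase homologue. Its log2 ratio was 1.70 and 2.22 at 8 h and -1.91 and -1.93 at 24 h (difference -3.88 ± 0.25, adjusted p = 0.000946). Its control channel, not above background at 8 h, was at least 9.98-fold higher at 24 h, and the MAA channel changed by -0.39 ± 0.35 (adjusted p = 0.478). With normexp and loess its difference was -0.99, still called but smaller in size than the -1.94 of Ccn1. Ccn1 (Cyr61), a matricellular protein and a serum-responsive gene, was 1.99 and 2.13 at 8 h and 0.19 and -0.02 at 24 h. MAA rose by 0.51 ± 0.08 and control rose by 2.49 ± 0.08. The same form was seen in Adcy1, an adenylyl cyclase (difference -1.66 ± 0.15, control 2.08 ± 0.13, MAA 0.41 ± 0.13), and in Tex14, a germ cell bridge protein (-1.57 ± 0.22, control 2.65 ± 0.28, MAA 1.08 ± 0.28), where normexp and loess gave -0.67. In Cyp2c23, Abca8a and Cmbl the differences were -1.89, -1.61 and -1.57 although the MAA channel rose, by 1.15, 2.02 and 1.53, and the control rose by 3.04, 3.63 and 3.1. Cyp2c23 and Cmbl lost their calls without any 1 of the 4 arrays, with adjusted p from 0.0684 to 0.105 and from 0.122 to 0.16. Other probes of Adcy1 did not pass the test. On 1 or more of the 4 arrays neither of their channels was well above background. With normexp and loess the difference of the called Adcy1 probe was -0.69 (adjusted p = 0.0952).

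Loss through the treated cells was seen in other leading genes. Mmp3, the stromelysin that degrades matrix proteins, stood at -0.37 and -0.32 at 8 h and at -2.12 and -1.87 at 24 h (difference -1.65 ± 0.11, adjusted p = 0.000946), and the MAA channel fell by 2.81 ± 0.09 against 1.16 ± 0.09 in the control. With normexp and loess its difference was -0.73. The ratio of Ccdc96 was 1.35 and 1.38 at 8 h and -0.12 and -0.54 at 24 h, with a MAA channel that fell by 2.54 ± 0.11. Cth, cystathionine gamma-lyase, which makes cysteine and hydrogen sulfide, moved in both channels in opposite directions. It was 0.29 and 0.48 at 8 h and -1.39 and -1.44 at 24 h: MAA fell by 0.89 ± 0.07 and control rose by 0.91 ± 0.07. Tnc, tenascin C of the extracellular matrix, did likewise, with -0.78 ± 0.12 and 0.80 ± 0.12 and a difference of -1.58 ± 0.16. Dock4, an activator of Rac, had a difference of -1.71 ± 0.37 (adjusted p = 0.0312) with neither channel past the test, at -0.62 ± 0.55 for MAA (adjusted p = 0.482) and 1.09 ± 0.55 for control (adjusted p = 0.183). Its ratios were 2.22 and 1.20 at 8 h and 0.31 and -0.30 at 24 h, and it lost its call in 12 of 27 settings. Another of its probes did not pass the test (difference -0.50, adjusted p = 0.175).

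**Figure D3:**
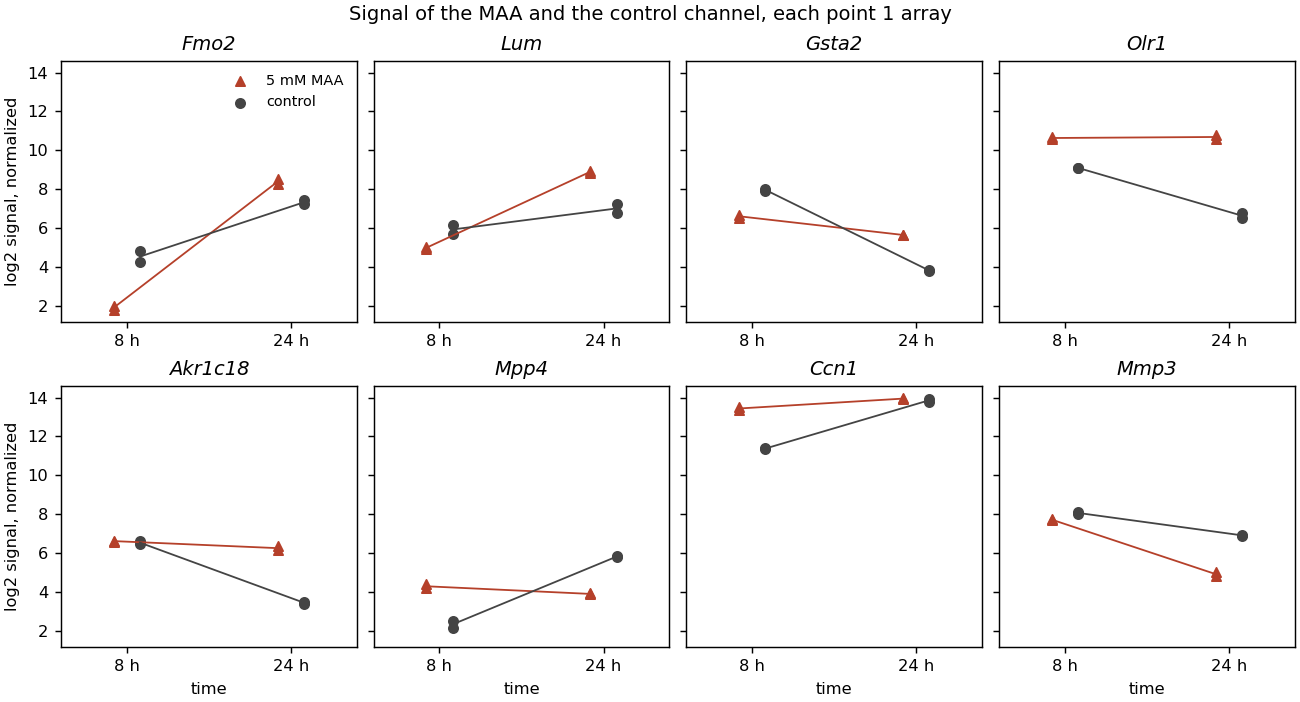
Normalized log2 signal of 8 leading genes in the MAA channel (triangles) and the control channel (circles) at 8 h and 24 h, each point an array and lines through the means. For Olr1 and Akr1c18 the MAA line is near level and the control line falls, for Mpp4 the control line rises, and for Fmo2, Lum and Mmp3 the MAA line is the steeper.

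Lists, chosen with earlier results of these data known, were counted with 1 probe per gene, the one of highest mean signal. Another probe was called where that one was not for genes that included Stard4, Cyp11a1, Col3a1, Mmp9, Vil1, Acta2, Gsr, Nfil3, Cry1 and Bnip3l. DNA replication genes lost ratio between 8 h and 24 h as a group. Of 36 measured, 22 were lower at 24 h and 0 were higher, the difference was below 0 in 36 of 36, and the median was -0.56 against 0.00 over 16017 genes, where 5.61% were lower. The median ratio went from 0.20 at 8 h to -0.41 at 24 h. Orc1, of the origin recognition complex, was 0.41 and 0.56 at 8 h and -0.58 and -0.59 at 24 h (difference -1.07 ± 0.08, adjusted p = 0.00136). Cdc6, the loader of the replicative helicase, was 0.71 and 0.76 and then -0.26 and -0.18, and Cdc45, a part of that helicase, was 0.22 and 0.24 and then -0.67 and -0.69. Ccne2, the cyclin of S phase entry, went from 0.54 and 0.62 to -0.37 and -0.52. These 4 lay above control at 8 h and below it at 24 h. Rrm1, a subunit of ribonucleotide reductase, was below control at both times, at -0.45 and -0.55 and then at -1.20 and -1.31. The MAA channel fell in 36 of 36 genes and the control channel in 33, with medians of -1.04 and -0.56, so replication transcripts were lower at 24 h in untreated cells too. For Ccne2 the control value was 0.00 ± 0.06 and MAA fell by 1.02 ± 0.06.

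Of 35 mitosis genes measured, 2 were lower at 24 h (5.71%, against 5.61% of all genes) and 0 were higher, with a median of -0.06. Their ratio was already below control at 8 h, with a median of -0.35, and stood at -0.41 at 24 h. Both channels fell in 35 of 35, by medians of 1.18 and 1.11. The 2 called were Espl1, the separase that frees sister chromatids (difference -0.46 ± 0.09), and Ncaph, a condensin subunit (-0.38 ± 0.08). Among cell cycle inhibitors and D-type cyclins 3 of 18 (16.7%) were lower, Btg2 (-0.60), Rbl1 (-0.41) and Gadd45b (-1.0), and 0 were higher. With each array centred on its median 8 replication genes and 0 mitosis genes were lower. Without 1 of the 4 arrays 8 to 10 replication genes were, and in a fit of the 6 arrays at 5 mM 0 were.

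**Figure D4:**
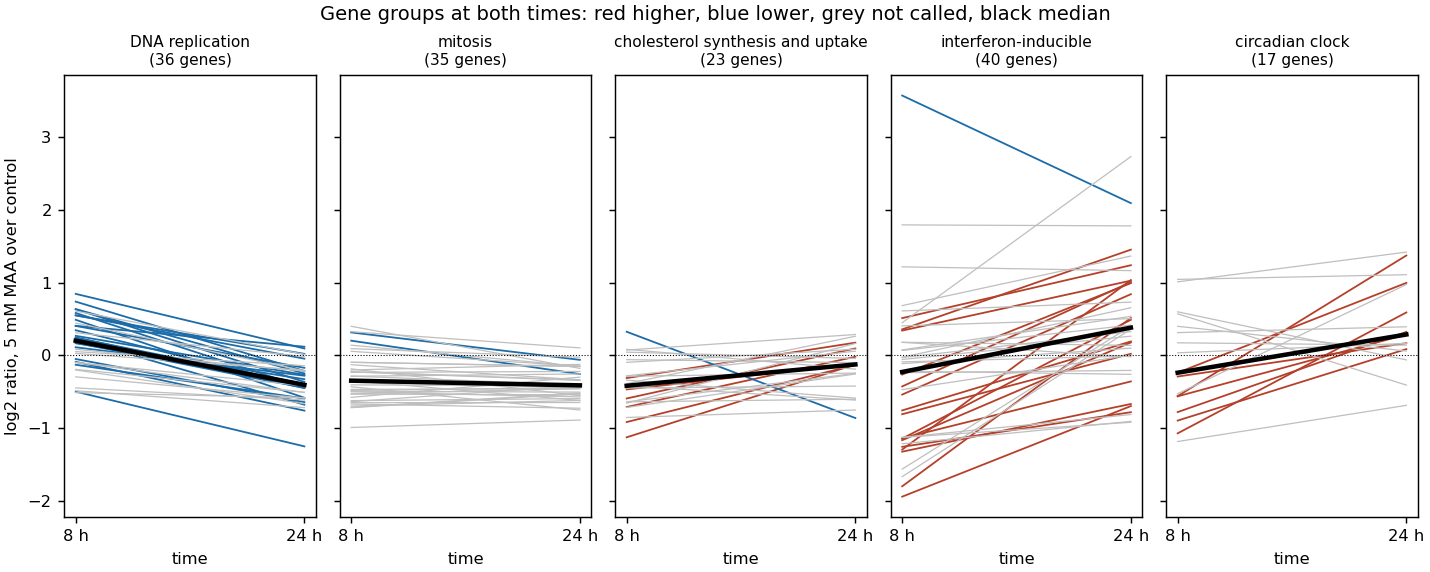
Log2 MAA over control ratio at 8 h and 24 h of each measured gene in 5 groups, with genes higher at 24 h in red, lower in blue and not called in grey; the black line is the group median. Replication genes slope down across 0, mitosis genes stay flat below it, and interferon-inducible and clock genes slope up across it.

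Promoters were searched for 6 motifs on both strands. The E2F letters TTTCCCGC, the site of the factors that drive replication genes, were in 3 of the 18 promoters of called replication genes (16.7%), in 5 of 33 of the whole list (15.2%), in 3.3% of promoters of all genes with a lower ratio, in 1.9% of those with a higher ratio and in 1.5% of 15942 promoters of genes on the array. The promoter of Cdc6 is shown as the example (RefSeq, GRCm38.p6, chr11:98907901-98908200, plus strand, 300 bases around the annotated start, most of them before it, E2F letters on the opposite strand in capitals):
Cdc6: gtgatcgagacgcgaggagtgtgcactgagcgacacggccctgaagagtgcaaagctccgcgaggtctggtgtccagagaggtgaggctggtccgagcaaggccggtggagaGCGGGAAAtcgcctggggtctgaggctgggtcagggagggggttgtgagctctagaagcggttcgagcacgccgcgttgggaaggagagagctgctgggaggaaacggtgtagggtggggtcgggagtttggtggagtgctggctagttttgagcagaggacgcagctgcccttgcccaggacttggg

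Interferon-inducible genes gained ratio. These genes are switched on by interferon receptors through STAT and IRF factors and act against viruses. Of 40 measured, 16 were higher at 24 h, where 6.04% of all genes were, and 1 was lower, with a median difference of 0.57. The median ratio went from -0.23 to 0.38. Ifit1, which binds viral RNA, was repressed at 8 h, at -1.34 and -1.25, and induced at 24 h, at 1.21 and 0.86 (difference 2.33 ± 0.19, adjusted p = 0.00144). Its MAA channel rose by 3.69 ± 0.17 and the control by 1.35 ± 0.17. Gbp3, a guanylate-binding GTPase, was -1.41 and -2.20 at 8 h and 0.72 and 0.30 at 24 h, through the MAA channel (2.24 ± 0.25; control -0.07 ± 0.25, adjusted p = 0.881). Ifi27 went from -0.40 and -0.46 to 1.04 and 0.97, Ifit3 from -0.29 and -0.24 to 0.97 and 1.01, and Irgm1 from -0.80 and -0.83 to 0.01 and 0.03. The difference was below 0 in 6 of the 40. Of these the chemokine Cxcl10 alone was called, at 3.63 and 3.52 at 8 h and at 2.16 and 2.03 at 24 h. Its control channel rose by 1.24 ± 0.13 and the MAA value was -0.24 ± 0.13 (adjusted p = 0.201). Centring the arrays left 12 of the list higher. Without 1 of the 4 arrays 5 to 9 were, and with the 6 arrays at 5 mM 2 were.

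The interferon-stimulated response element (ISRE) was in 10 of the 15 promoters of the called interferon-inducible genes, in 19 of 33 of the whole list and in 3.44% of all promoters, while promoters of all genes with a higher ratio held it in 3.33% and those with a lower ratio in 3.1%. Promoters of Ifit1 (chr19:34640639-34640938, plus strand), Gbp3 (chr3:142559794-142560093, plus strand) and Irgm1 (chr11:48871371-48871670, minus strand) are shown since these genes gained and each holds 2 matches, which overlap in Gbp3 and Irgm1 (capitals, either strand):
Ifit1: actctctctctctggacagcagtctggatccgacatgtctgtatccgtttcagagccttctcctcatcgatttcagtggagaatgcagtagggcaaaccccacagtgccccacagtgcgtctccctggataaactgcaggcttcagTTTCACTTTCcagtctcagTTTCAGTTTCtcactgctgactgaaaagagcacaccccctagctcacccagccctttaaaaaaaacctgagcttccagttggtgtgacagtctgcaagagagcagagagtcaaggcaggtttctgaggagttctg
Gbp3: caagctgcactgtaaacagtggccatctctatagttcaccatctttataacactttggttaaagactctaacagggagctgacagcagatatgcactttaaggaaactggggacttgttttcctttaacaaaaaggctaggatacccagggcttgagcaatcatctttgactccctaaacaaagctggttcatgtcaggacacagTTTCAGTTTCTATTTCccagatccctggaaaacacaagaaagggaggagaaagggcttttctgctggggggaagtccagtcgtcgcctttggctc
Irgm1: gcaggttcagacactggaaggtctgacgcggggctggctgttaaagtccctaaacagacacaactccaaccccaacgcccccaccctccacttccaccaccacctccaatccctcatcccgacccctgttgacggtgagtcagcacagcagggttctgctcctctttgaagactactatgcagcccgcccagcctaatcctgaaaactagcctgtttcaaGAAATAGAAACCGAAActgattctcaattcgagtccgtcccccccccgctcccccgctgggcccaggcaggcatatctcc
The 4 other motifs, CRE (TGACGTCA), AP-1 (TGAGTCA), EGR (GCGGGGGCG) and SP1 (GGGGCGGGG), were in 4%, 3.4%, 4.1% and 22.5% of promoters of genes with a lower ratio and in 1.9%, 5.9%, 5.14% and 15.3% of those with a higher ratio, against 2.43%, 4.61%, 4.34% and 17.2% of all.

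Of 20 genes of MHC and antigen processing, 4 were higher (20%, against 6.04% of all genes) and 1 was lower (5%, against 5.61%). The median was 0.22. The 4 were H2-Ab1, H2-Aa and H2-Eb1, chains of class II molecules that present peptides to helper T cells, and Cd74, their invariant chain. Neither channel of H2-Aa was well above background at 8 h, and at 24 h the MAA channel was, at least 4.01-fold over control. H2-Ab1 was above background in the MAA channel on 1 array at 8 h and on both at 24 h, and rose there by 3.31 ± 0.24, while its control, not above background at 8 h, was at least 2.31-fold higher at 24 h. Cd74, measured in all channels, was 1.57 and 1.69 at 8 h and 2.30 and 2.52 at 24 h. Psmb10, an immunoproteasome subunit, was lower (-0.52). Beside these, the macrophage marker Adgre1 was not above background at 8 h in either channel and at least 7.19-fold over control in the MAA channel at 24 h. Of the other macrophage markers measured, Ptprc was not above background in any channel and Cd14 and Lyz2 differed by -0.14 and -0.01 (adjusted p = 0.523 and 0.968). The summed signal of the 4 macrophage markers was 466 and 500.1 at 8 h and 1195 and 1154 at 24 h in the MAA channel, and 1105 and 1042 and then 1999 and 2059.6 in the control. The RNA was of a cell line, and the source of these signals was not tested.

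Of 17 clock genes 7 were higher at 24 h (41.2%, against 6.04% of all genes) and 0 lower (against 5.61%). In 13 the difference was above 0, and the median was 0.46. The mammalian clock is a loop in which PER and CRY proteins repress their own activators, and the PAR-domain factors are among its outputs. Per2 had the lowest p of the list, at -0.60 and -0.53 at 8 h and at 1.35 and 1.4 at 24 h (difference 1.93 ± 0.08, adjusted p = 0.000404). Its MAA channel rose by 2.40 ± 0.06 and control by 0.46 ± 0.06. Nr1d2, which encodes REV-ERB beta, was -0.82 and -0.75 and then 0.34 and 0.30. Here MAA rose by 0.64 ± 0.05 and control fell by 0.47 ± 0.05. The PAR-domain factors Dbp, at -1.20 and -0.95 and then at 0.46 and 0.72, and Tef, at -0.50 and -0.63 and then at 0.34 and 0.23, moved with them, as did Nr1d1 (1.24 ± 0.17), Bhlhe40 (0.98 ± 0.12) and Per1 (0.46 ± 0.09). Nfil3, a repressor of the targets that PAR-domain factors activate, had a difference of -0.66 that did not pass the test (adjusted p = 0.0556), but its second probe was lower (-0.62, adjusted p = 0.00877). The same held for Cry1, a repressor of the loop, at -0.34 (adjusted p = 0.424) and, with its second probe, at -0.35 (adjusted p = 0.0433). The time difference at 1 mM was 1.13 for Per2, 1.11 for Nr1d2, 1.17 for Tef and 1.39 for Dbp (adjusted p = 0.00556, 0.0053, 0.00833 and 0.0372), and only that of Per2 differed from 5 mM (adjusted p = 0.0342) among these 4. With centred arrays, and without any 1 of the 4 arrays, 6 clock genes were higher, and with the 6 arrays at 5 mM 2 were.

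Cholesterol genes lay below control at 8 h and nearer to it at 24 h. Of 23 genes of cholesterol synthesis and uptake 6 were higher (26.1%, against 6.04% of all genes) and 1 lower (4.35%, against 5.61%). The median ratio was -0.42 at 8 h and -0.13 at 24 h. Insig1, which retains the sterol sensor in the endoplasmic reticulum, went from -1.14 and -1.12 to -0.19 and -0.06 (difference 1.00 ± 0.09, adjusted p = 0.00159), and Cyp51, lanosterol demethylase, from -0.99 and -0.85 to -0.10 and -0.17. Hmgcs1, Lss, Fdft1 and Fdps, further enzymes of the pathway, were higher by 0.69, 0.69, 0.49 and 0.35. The control rose too, in 17 of 23 genes, and MAA in 19. The difference was below 0 in 6 of the 23. Of these Tm7sf2, a sterol reductase, alone was called, with -1.19 as its control rose by 1.80. Centring the arrays left 2 higher, and leaving out 1 of the 4 arrays left 2 to 4, and the 6 arrays at 5 mM left 0.

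**Figure D5:**
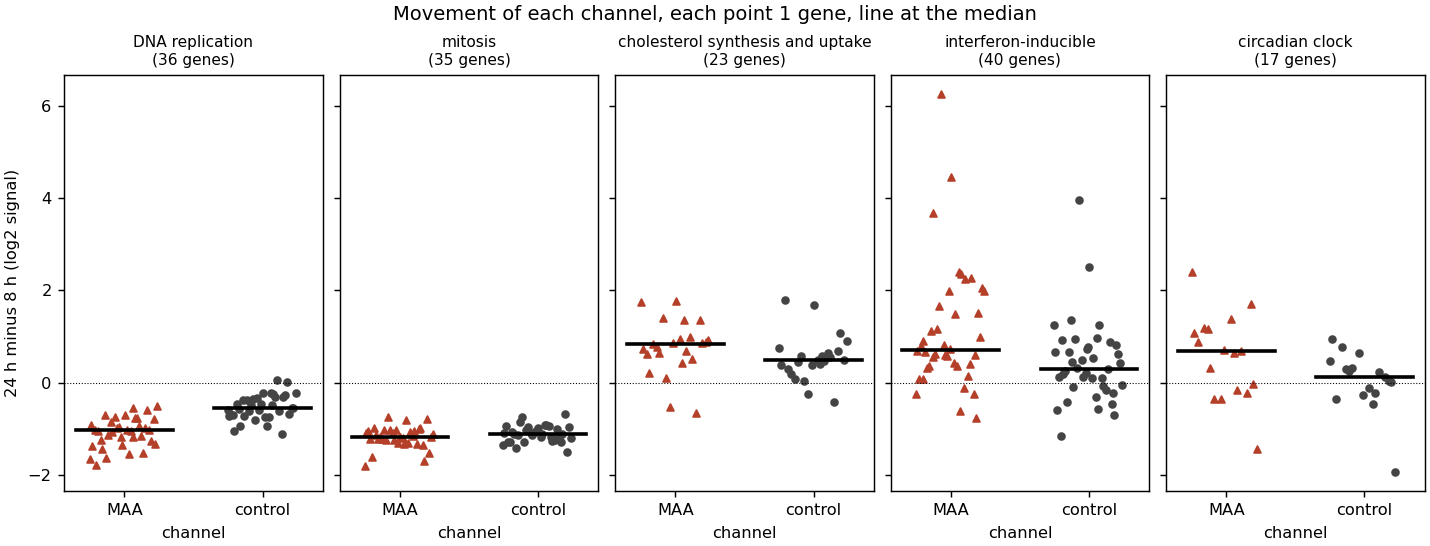
Change of log2 signal from 8 h to 24 h in the MAA channel (triangles) and the control channel (circles) for each gene of 5 groups, with a line at the median. Replication genes fell in both channels, further in MAA (medians -1.04 and -0.56), mitosis genes fell alike (-1.18 and -1.11), and cholesterol, interferon and clock genes have the higher median in MAA.

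Genes of steroid production showed no common direction, and the median was 0.06. Of 25, 2 were higher (8%, against 6.04% of all genes) and 2 lower (8%, against 5.61%), near the share of all genes. Besides Akr1c18, Hsd3b7 was higher (0.48). Hsd17b1, which makes active estrogen and androgen, was 1.34 and 1.25 at 8 h and 0.28 and 0.30 at 24 h, through the MAA channel (-0.96 ± 0.15; control 0.04 ± 0.15, adjusted p = 0.886), and Scarb1, a receptor for high density lipoprotein, was lower (-0.38). Of 8 testis and steroid genes that the study names, Rhox5, an androgen-regulated homeobox gene, was higher, and the median was 0.58; the list was chosen by the study on these samples. Rhox5 was -0.10 and 0.05 at 8 h and 1.25 and 1.31 at 24 h (difference 1.30 ± 0.11, adjusted p = 0.00152), and MAA rose by 2.05 ± 0.10. The others did not pass the test, with adjusted p from 0.109 to 0.593: the differences were 1.07 for Cyp11a1, 0.90 for Esr1, 0.78 for Hoxb13, 0.39 for Hsd17b11, 0.33 for Shbg, -0.33 for Cyp17a1 and -0.40 for Insl3. A second probe of Cyp11a1, the enzyme that opens steroid synthesis from cholesterol, was higher by 2.43 (adjusted p = 0.013), with ratios of 0.16 and 0.19 at 8 h and of 2.96 and 2.26 at 24 h, though on 1 or more of the 4 arrays neither of its channels was well above background. Of the Leydig cell markers 0 of 8 passed by the brighter probe, Cyp11a1 passing by its second. The summed signal of the 8 was 466 and 481 at 8 h and 523 and 516 at 24 h in the MAA channel. In the control channel it was 600 and 556 at 8 h and 896 and 799 at 24 h.

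Counts in the lists that follow are small. They are read against 6.04% of all genes higher and 5.61% lower, or 8.09% and 7.75% of genes well above background. With each array centred, or without 1 of the 4 arrays, most of them shrank: 5 IGF genes higher became 2 and 1 to 2, 7 chemokines higher became 5 and 2 to 5 and 5 lower became 0 and 0 to 1, 2 linker histones higher became 0 and 0, 4 actin genes higher became 0 and 0, and 2 BCL2 genes higher and 2 lower became 1 and 0 and then 0 and 0. Immediate early genes split. Of 25, Egr1, Junb, Fosl1 and Klf10 were higher and Atf3, Ier3 and Fos lower, with a median of -0.09. Egr1, a zinc finger factor induced through ERK, was 0.28 and 0.19 at 8 h and 1.83 and 1.62 at 24 h (difference 1.49 ± 0.17, adjusted p = 0.00341), as MAA rose by 2.94 ± 0.11 and control by 1.45 ± 0.11. Egr2 was above control at both times, at 1.60 and 1.66 and then at 1.71 and 1.67, and its difference of 0.06 did not pass the test (adjusted p = 0.857). Fos was 1.82 and 1.72 and then 1.21 and 0.95. In ERK feedback, ERK induces genes that restrain it. Of 17 genes listed under that name, 4 were higher and 0 lower. Dusp6 went from -0.09 and 0.08 to 1.00 and 1.03, and Dusp4 and Spry4 were higher by 0.71 and 1.76. Etv1, a transcription factor, was the last of the 4, but neither of its channels was above background at either time. At 1 mM the time difference was -0.20 for Egr1 and -0.28 for Dusp6, and both differed from 5 mM (adjusted p = 0.0309 and 0.00927).

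Among secreted factors, 7 of 33 chemokines and cytokines were higher and 5 lower (median 0.21). The neutrophil and eosinophil attractants Cxcl5, Cxcl1 and Ccl11 were below control at 8 h and near it at 24 h: Cxcl5 went from -1.37 and -1.69 to 0.15 and 0.10 (difference 1.65 ± 0.14), and Ccl11 from -0.98 and -1.08 to 0.09 and 0.07. Il15, a growth factor of natural killer cells, was above background in the MAA channel on 1 array at 8 h, at least 2.07-fold over control, and at least 10.01-fold at 24 h, with the control not above background at either time. Ccl2 (-0.77), Il6 (-0.70), Cx3cl1 (-0.67), Kitl (-0.65) and Tslp (-0.45) were lower. In the IGF system 5 of 15 were higher and 0 lower (median 0.22). Igfbp5, a binding protein of IGF, went from -0.92 and -1.16 to 0.84 and 0.73 through the MAA channel (1.75 ± 0.14; control -0.08 ± 0.14, adjusted p = 0.758), and Igf2, Irs1, Igf1 and Igfbp4 followed with 0.96, 0.80, 0.59 and 0.49. Of 33 WNT genes 4 were higher and 0 lower (median 0.21), among them the antagonist Wif1, above background in the MAA channel at 24 h alone and at least 5.9-fold over control there, and Frzb (1.62).

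Chromatin genes included linker histones in both directions. Of 8, H1f0, the replacement form of non-dividing cells, and H1f10 were lower. H1f4 and H1f5, made in S phase, were higher, and the median of the 8 was 0.13. H1f0 was 1.57 and 1.56 at 8 h and 0.68 and 0.82 at 24 h, while MAA fell by 1.18 ± 0.11. H1f5 was 0.06 and -0.03 and then 0.79 and 0.80, as control fell by 1.94 ± 0.18 and MAA by 1.16 ± 0.18. Of 17 histone deacetylases 2 were lower and 0 higher (median -0.05). These were Sirt1 (-0.68) and Hdac9 (-1.77), which was not above background at 8 h.

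Matrix and cytoskeleton groups were counted likewise. Of 27 collagen chains 3 were higher (median 0.14), Col18a1 (1.02), Col6a1 (0.63) and Col5a1 (0.56). Of 14 small leucine-rich proteoglycans Lum alone was (median 0.14). Of 21 metalloproteinases and inhibitors Mmp2 was higher (0.52) and Mmp3 and Mmp13 were lower (median 0.04). Of 31 actin and smooth muscle genes 4 were higher (median 0.01), of 20 integrins Itgb7 was (median 0.19), and of 22 protocadherin beta genes 2 were higher and 1 lower (median 0.03), with a median ratio of -1.4 at 8 h and of -1.39 at 24 h. The Itgb7 signal fell by 3.69 ± 0.22 in the control and by 1.74 ± 0.22 under MAA.

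In metabolism and stress, 5 of 32 genes of fatty acid use and PPAR targets were higher and 2 lower (median 0.09). Angptl4, an inhibitor of lipoprotein lipase, went from 0.09 and 0.08 to -1.17 and -1.06 through the MAA channel (-1.19 ± 0.06; control 0.01 ± 0.06, adjusted p = 0.933). Fabp4 and Ucp2 were higher by 0.81 and 0.77. Of 30 genes of oxidative stress and glutathione 3 were higher, with Gsta2 first, and 4 lower (median 0.00). Of 20 genes of the unfolded protein and amino acid response 1 was higher and 3 lower (median -0.30). Chac1, a glutathione-degrading enzyme induced by ATF4, went from 1.23 and 1.08 to 0.14 and -0.07 as its control rose by 1.10 ± 0.09 (MAA -0.02 ± 0.09, adjusted p = 0.919). Of 18 heat shock genes Hspb8 was higher (0.59, median -0.07). In the BCL2 family, which sets the threshold for apoptosis, 2 of 17 were higher, Bnip3 (0.74) and Bmf (1.41), and 2 lower, Bad (-0.82) and Bcl2l11 (-0.46), with a median of 0.20.

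Markers of other cells were few among the calls. Of 7 mesenchymal markers, 6 of which were above background in both channels of all 4 arrays, Pdgfra was higher (1.01). Of 7 Sertoli cell markers Rhox5 was, and of 7 germ cell markers Ddx4 was lower (-0.74). Of 5 endothelial markers 4 were not above background in any channel, Cdh5 among them, which was called higher.

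At 1 mM MAA the same time difference was past the test for 237 probes. Arrays of both concentrations may share control RNA, which the fit of the dose difference does not model. For the 3670 probes called at 5 mM the median size of the difference was 0.65 at 5 mM and 0.19 at 1 mM, and the 2 concentrations differed (adjusted p under 0.05) in 390. Among leading genes Lum had differences of 2.83 at 5 mM and 2.35 at 1 mM, Olfm1 of 2.54 and 1.81 and Fmo2 of 3.70 and 2.10. Mmp3 ran in opposite directions, with -1.65 at 5 mM and 1.76 at 1 mM (adjusted p of the difference 0.000845). For Gsta2 the values were 3.20 and 0.69, for Akr1c18 2.73 and -0.29 and for Mpp4 -3.88 and -0.40, and each pair differed (adjusted p = 0.0151, 0.00961 and 0.0118).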

How the data were processed

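RNA of MAA-treated and control TM3 cells was hybridized to 2-colour Agilent arrays. The deposited intensity values were made by the authors with Feature Extraction 9.5.3.1, per the file headers, which subtracts background and normalizes dyes by LOWESS, and the deposited log10 ratios come from the same step. Here log2 of MAA over control processed signal was taken, turned by dye; control and outlier spots were excluded and spots averaged per probe. In limma 3.58.1 (R 4.3.3) a coefficient was fitted per condition over all 12 arrays, and the 24 h minus 8 h contrast was called at a Benjamini-Hochberg adjusted p under 0.05. Channels were fitted with lmscFit after Aquantile normalization. A probe not well above background on either array of a group gave a bound ("at least"). Figures used matplotlib 3.10.9. Scripts were tested on simulated data. Named were the 12 genes per direction with the largest difference, moving alike in both same-numbered pairs and detected on the 4 arrays, up to 4 genes per list by p, others a list needed, and the study's testis genes. 1 of the genes so chosen is not reported here. Comparison, members and lists were chosen with earlier results of these data known. Alternatives changed the source of the ratio, background correction, centring, filters, arrays fitted, slide and replicate blocks and thresholds.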

Additional observations from a re-analysis of the deposited data

Results flagged for a closer look

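For 6 probes the ratio was past the threshold for a single time (over 2-fold, unadjusted p under 0.005) in opposite directions at 8 h and 24 h, and the limma contrast between the times was past its own threshold. The difference was 3.70 and 2.70 for the 2 probes of Fmo2 (mean ratios -2.63 and 1.07, and -1.66 and 1.04). It was 3.20 for Gsta2 (-1.36 and 1.83), 2.76 for Ranbp3l (-1.07 and 1.69) and 2.33 for Ifit1 (-1.30 and 1.03). Mpp4 ran the other way, with -3.88 (1.96 and -1.92).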

How the results depend on the processing

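The counts of probes with a higher and a lower ratio at 24 h, 1893 and 1777, moved with the setting, and the cause was not tested. They were 851 and 481 with centred arrays, 103 and 30 with the 6 arrays at 5 mM, 552 and 243 over 2-fold, and 567 and 247 at an unadjusted p under 0.005 and over 2-fold. The limma fit of the 4 arrays alone, with 2 residual degrees of freedom, called 0 and 0, with 6766 probes at an unadjusted p under 0.05. Lower counts were 2827 with the deposited log ratio, 2801 with the deposited series table and 2984 with detected probes only, and 2898 were higher with normexp and loess. Slide as a random block gave 3007 and 3333. The replicate block gave 3587 and 3826; same-numbered deviations at the 2 times correlated at 0.275, and the samples share only a number, which is also the dye orientation. Leaving out 1 array gave 564 to 1729 higher and 396 to 1536 lower: 597 and 415 without 24 h replicate 1, 564 and 396 without 24 h replicate 2, 610 and 509 without 8 h replicate 1, 756 and 507 without 8 h replicate 2, and 1114 lower without either 1 mM 24 h array. The share of called probes whose MAA channel moved more, 70.4%, was 68.1% to 71.8%. Egr2, not called, changed sign with slide as a fixed block (-0.0228).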
